A study of Rattus norvegicus with 9 samples.

Results

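Genes whose RNA is known to mark the cerebellum were followed across the 9 hippocampal libraries of the study. The 8 genes were Gabra6, Cbln3, Fat2, Pcp2, En2, Cbln1, Zic1 and Zic2, out of 21138 genes in the table, and they were chosen by symbol with their values in the same libraries already known. Their levels are therefore given as a description, without a test. Hippocampal tissue of wild-type male Sprague-Dawley rats was collected on day 56, with 3 libraries in each of 3 groups. The CK group had no surgery and received normal saline. In the VD group, the model of vascular dementia, both common carotid arteries had been ligated and the rats received normal saline. The INS + VD group had the same ligation and received insulin through the nose. CK and VD samples carry the same treatment in the labels and are told apart only by their titles. The study calls its samples biological replicates without saying whether each library is from a single rat, and p-values measure only the spread between these samples.

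The cerebellum has neuron types of its own. Cerebellar granule cells, the most numerous neurons of the brain, send parallel fibres to Purkinje cells, whose axons are the only output of the cerebellar cortex. Bergmann glia span the layer in which these synapses lie. Gabra6, Cbln3 and Fat2 belong to mature granule cells and Pcp2 to Purkinje cells, whereas En2 is a transcription factor of the midbrain and hindbrain. Cbln1, Zic1 and Zic2 are abundant in granule cells but are also transcribed elsewhere in the brain, and Zic genes are known from the olfactory bulb, septum and meninges.

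Levels are given as FPKM, fragments scaled by gene length and by the mapped fragments of a library. The sum over all genes was lowest in INS + VD replicate 3 (453716) and highest in VD replicate 1 (635759). VD replicate 1 also listed the fewest genes above 0, namely 14428 compared with 17441 to 18088, and gave 0 for 568 genes whose other 8 values were all over 1 FPKM. A value of 0 in that library therefore carries little weight. The library labelled CK replicate 3 stood apart in the marker genes, as described first, and the group differences and counts of calls below are given with and without it. In these bulk samples fewer cells of a type and less RNA per cell cannot be told apart.

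All 8 marker genes were highest in CK replicate 3, where their FPKM summed to 2548, or 0.545% of the total of that library. The sums in the other 8 libraries ran from 18.9 in CK replicate 1 to 102 in VD replicate 3. Gabra6, Cbln3, Pcp2, Fat2 and En2 alone summed to 1247.5 FPKM in CK replicate 3 and to between 0.200 (CK replicate 1) and 3.07 (INS + VD replicate 2) elsewhere. CK replicates 1 and 2 had the lowest sums of the 8 genes, and the separation ran between CK replicate 3 and the remaining libraries rather than between groups.

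Gabra6 encodes the alpha 6 subunit of the GABA A receptor, which in adult brain is found in granule cells of the cerebellum. The table places the gene on the minus strand of chromosome 10 (27847439 to 27862868, build unclear). Its FPKM was 0.175, 0.157 and 501 in CK replicates 1 to 3, was 0, 0.347 and 0 in the VD libraries, and was 0.884, 0.0430 and 0.379 in the INS + VD libraries. CK replicate 3 exceeded the highest other library, INS + VD replicate 1, by 567-fold. Within CK replicate 3 Gabra6 was at rank 74 of all genes by FPKM, and its best rank in any other library was 13618.

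Cbln3 encodes a cerebellin that granule cells secrete in complexes with Cbln1. It lies on the minus strand of chromosome 15 (34548295 to 34550860 in the table). Its FPKM was 0, 0.117 and 321 in the CK libraries, 0, 0.791 and 0.0294 in the VD libraries, and 0.590, 0.140 and 0.0581 in the INS + VD libraries. The level in CK replicate 3 was 405-fold above that in VD replicate 2, the next highest. Rank 157 in CK replicate 3 compared with a best rank of 13637 elsewhere.

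Fat2 encodes a large cadherin of parallel fibres and, like Gabra6, lies on the minus strand of chromosome 10 (40584403 to 40657861). Its FPKM was 0.0255, 0.0525 and 76.2 in the CK libraries, 0, 0.0634 and 0.215 in the VD libraries, and 0.132, 0.0251 and 0.0261 in the INS + VD libraries. The excess of CK replicate 3 over VD replicate 3, the next highest library, was 354-fold. Fat2 remained below 0.5 FPKM in each library but CK replicate 3, so its variation among those 8 libraries lies near the lower limit of the table.

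Pcp2, also known as L7, encodes a modulator of G protein signalling in Purkinje cells and retinal bipolar cells. It lies on the minus strand of chromosome 12 (2172378 to 2174131). Its FPKM was 0, 0.124 and 276 in the CK libraries, 1.57, 0.240 and 0 in the VD libraries, and 1.0, 0.237 and 0.246 in the INS + VD libraries. CK replicate 3 was 176-fold above VD replicate 1. Granule cell and Purkinje cell genes were thus high in the same library.

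En2 encodes a homeobox transcription factor that patterns the midbrain and cerebellum and is on chromosome 4 (438668 to 444501, plus strand in the table). Its FPKM was 0, 0.0422 and 73.2 in the CK libraries, 0, 0.265 and 0.0424 in the VD libraries, and 0.341, 2.62 and 0.0210 in the INS + VD libraries. CK replicate 3 exceeded INS + VD replicate 2 by 27.9-fold. INS + VD replicate 2 in turn stood apart from the remaining libraries, which were at most 0.341 FPKM.

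Cbln1 encodes the cerebellin that parallel fibres release and that organises their synapses with Purkinje cells. The table places it on the plus strand of chromosome 19 (20607507 to 20611316). Its FPKM was 4.03, 8.75 and 613 in the CK libraries, 28.4, 11.1 and 29.0 in the VD libraries, and 3.0, 33.7 and 7.94 in the INS + VD libraries. It was the most abundant of the 8 genes in CK replicate 3, at rank 53, but the excess over the next library, INS + VD replicate 2, was 18.2-fold because the gene was measured in all libraries.

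Zic1 and Zic2 encode zinc finger transcription factors that granule cells keep into adulthood. Zic1 lies on the minus strand of chromosome 8 (98734295 to 98738446) and Zic2 on the plus strand of chromosome 15 (108908607 to 108912737). Zic1 FPKM was 6.27, 7.39 and 449 in the CK libraries, 6.91, 14.1 and 40.9 in the VD libraries, and 9.81, 10.7 and 6.26 in the INS + VD libraries. Zic2 FPKM was 8.37, 8.86 and 239 in the CK libraries, 0, 8.38 and 31.4 in the VD libraries, and 13.7, 7.54 and 13.0 in the INS + VD libraries. VD replicate 3 was the next highest library for both genes, with CK replicate 3 11.0-fold above it for Zic1 and 7.59-fold for Zic2. The Zic2 value of 0 belongs to VD replicate 1, the library with many zeros.

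**Figure D1:**
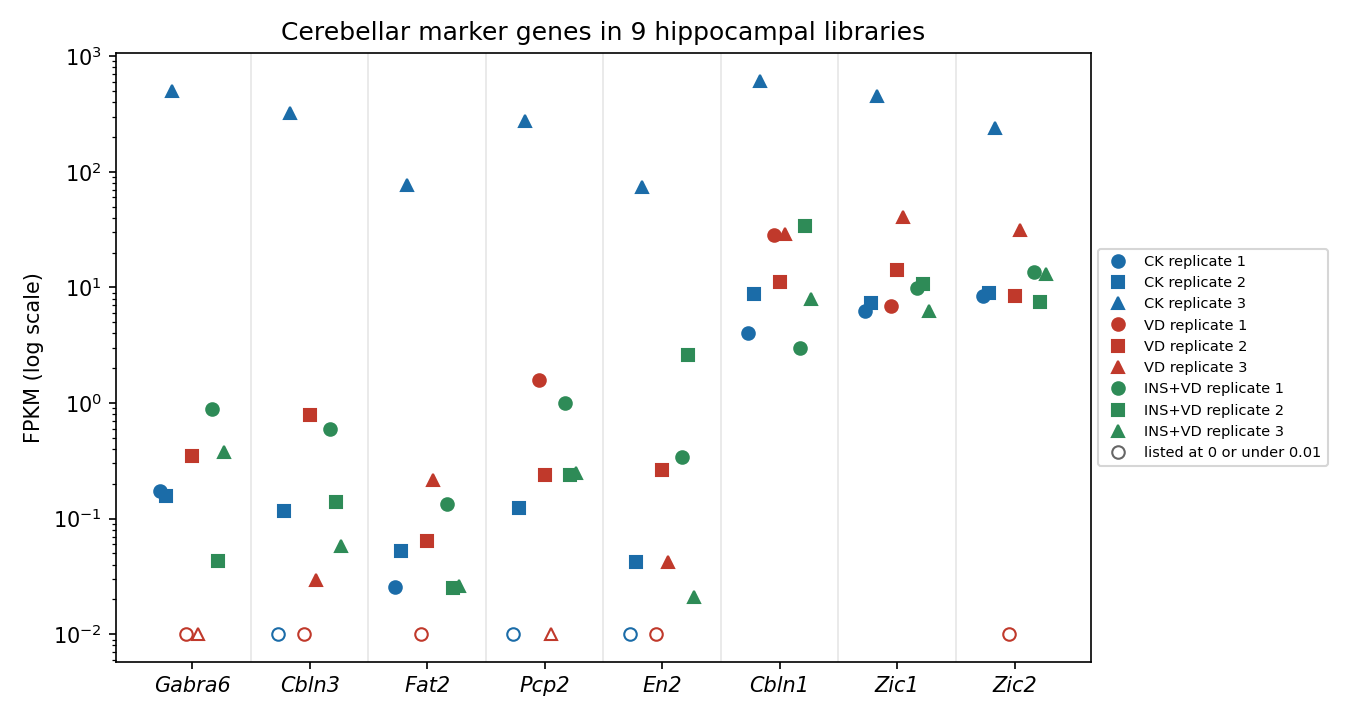
FPKM of the 8 marker genes in each library, on a log axis, with 1 point per gene and library and values of 0 drawn at the bottom. CK replicate 3 is highest for every gene, from 73.2 FPKM for En2 to 613 for Cbln1, while the other libraries do not exceed 2.62 FPKM for Gabra6, Cbln3, Fat2, Pcp2 and En2.

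The 8 genes fell into a strict and a broad set by their level outside CK replicate 3. Median FPKM over the other 8 libraries was 0.166 for Gabra6, 0.0876 for Cbln3, 0.0393 for Fat2, 0.238 for Pcp2 and 0.0423 for En2. The medians were 9.91 for Cbln1, 8.60 for Zic1 and 8.62 for Zic2. Over the same 8 libraries Cbln1 ran from 3.0 to 33.7 FPKM, Zic1 from 6.26 to 40.9 and Zic2 from 0 to 31.4. These 3 genes were not tested against each other. The strict genes were near the lower limit of the table outside CK replicate 3, and the broad genes were not.

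Among the 7350 genes with at least 10 FPKM in CK replicate 3, genes were put in order by the ratio of that library to the highest other, after 0.1 FPKM was added to each. Gabra6, Cbln3, Fat2 and Pcp2 held the first 4 places. En2 was at place 19, Cbln1 at 26, Zic1 at 33 and Zic2 at 47. Since the marker genes were picked with such values in view, the order describes them and is no test of them.

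Across the 9 libraries the 28 pairs of marker genes had Pearson correlations of log2(FPKM + 1) from 0.56 for Cbln1 and Zic2 to 0.996 for Gabra6 and Cbln3. These values rest on CK replicate 3. Over the other 8 libraries they ran from −0.80 for Gabra6 and Cbln1 to 0.85 for Fat2 and Zic1, with a median of 0.10 and 10 pairs below 0. Zic1 and Zic2 correlated at 0.84 over 9 and at 0.54 over 8 libraries. The 8 points of each pair share library and depth, and for the strict genes most of them lie below 1 FPKM.

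Promoter sequences were available for 5 of the 8 genes, from the RefSeq annotation of rat assembly GRCr8. The 250 bases upstream of the annotated start were searched on both strands for the E-box CANNTG, the nuclear factor I (NFI) half-site TTGGC, the ROR half-site AGGTCA and the homeodomain core TAATTA. NFI factors are known to act on the Gabra6 promoter in maturing granule cells, and the orphan receptor ROR alpha is known to be needed by Purkinje cells, so the promoters of Gabra6, Fat2 and Pcp2, which are 3 of the 4 strict genes with such a match, are shown for both cell types. Each is written 5′ to 3′ on the strand of the gene and ends at the base before the start, with the half-site in capitals. They cover chr10:27327235-27327484 (minus strand) for Gabra6, chr10:39956903-39957152 (minus strand) for Fat2 and chr12:6481308-6481557 (minus strand) for Pcp2.
Gabra6: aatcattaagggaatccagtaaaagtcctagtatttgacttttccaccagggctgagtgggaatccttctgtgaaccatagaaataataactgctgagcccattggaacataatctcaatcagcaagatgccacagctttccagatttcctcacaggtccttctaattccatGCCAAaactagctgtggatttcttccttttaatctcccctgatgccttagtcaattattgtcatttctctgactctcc
Fat2: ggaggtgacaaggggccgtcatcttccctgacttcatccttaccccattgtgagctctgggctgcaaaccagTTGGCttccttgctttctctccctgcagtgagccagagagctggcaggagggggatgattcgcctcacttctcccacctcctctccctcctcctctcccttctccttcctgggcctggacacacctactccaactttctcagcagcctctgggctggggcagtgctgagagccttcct
Pcp2: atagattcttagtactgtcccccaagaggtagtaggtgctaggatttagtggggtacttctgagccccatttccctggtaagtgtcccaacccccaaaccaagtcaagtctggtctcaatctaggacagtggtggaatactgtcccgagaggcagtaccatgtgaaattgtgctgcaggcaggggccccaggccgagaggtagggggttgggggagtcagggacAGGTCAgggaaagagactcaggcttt

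In the Gabra6 promoter the NFI half-site reads GCCAA on the gene strand and lies 78 to 74 bases before the start. The Fat2 promoter holds TTGGC at 178 to 174 bases, where it overlaps an E-box at 181 to 176, and the En2 promoter holds TTGGC at 131 to 127 bases. Pcp2 holds AGGTCA at 26 to 21 bases and an E-box at 92 to 87 bases. The half-site TTGGC was thus present in 3 of 5 promoters, against 40.3% of all 33469 promoters of the same length, and AGGTCA in 1 of 5 against 14.1%. An E-box was present in 2 of 5 promoters (65.5% of all) and TAATTA in 0 of 5 (4.86% of all), and the Zic2 promoter had no match. The sequences differed in base composition, with a GC content of 41.2% for Gabra6, 54% for Pcp2, 59.2% for Fat2, 70% for En2 and 73.6% for Zic2. These short matches are common and describe the letters of the windows only.

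Lists of other genes of cerebellar cell types held 57 genes, all of them in the table. In CK replicate 3, 39 of the 57 (68.4%) were at their highest, against 20.2% of the 15099 genes that reached 0.5 FPKM in 3 or more libraries. CK replicate 3 was at least 4-fold above the highest other library for 23 of the 57 (40.4%), against 0.834% of those 15099 genes. Of the 57 genes 50 passed that filter, so both shares of the lists also count genes outside the 15099. By list, 12 of 14 granule cell genes, 19 of 20 Purkinje cell genes, 3 of 5 Bergmann glia genes, 2 of 10 genes of interneurons and unipolar brush cells and 3 of 8 midbrain-hindbrain transcription factors were highest there. Such lists had been chosen with results of these libraries known, so their counts are not independent of the marker genes.

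Beside Pcp2, the Purkinje cell gene Ca8, a carbonic anhydrase-related protein that binds the IP3 receptor, stood at 752 FPKM in CK replicate 3 and at no more than 14.0 elsewhere. Pvalb and Calb1, calcium-binding proteins that hippocampal neurons also make, stood at 887 and 460 FPKM against at most 123 and 99.8. Itpr1, the IP3 receptor itself, was at 287 against at most 65.3. The glutamate transporter gene Slc1a6 was at 133 against at most 4.34. Pvalb, Calb1 and Itpr1, which were more abundant in the other libraries, thus had smaller ratios than Ca8 and Slc1a6, a split like that between Cbln1 and Cbln3.

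Beside Gabra6, the granule cell gene Neurod1, a basic helix-loop-helix transcription factor, was at 353 FPKM in CK replicate 3 against at most 5.65 elsewhere. Calb2 (calretinin) was at 416 against at most 205, Chn2 at 348 against at most 48.1, and Grm4, the presynaptic glutamate receptor of parallel fibres, at 286 against at most 38.6. Not every listed gene followed. The granule cell genes Kcnk9 and Barhl1 were highest in INS + VD libraries, and Foxp2, which Purkinje cells and many other neurons make, was lowest in CK replicate 3 at 1.02 FPKM. Fabp7 of Bergmann glia and other radial glia stood at 36.7 FPKM in CK replicate 3 and at 257, 78.9 and 341 in the VD libraries, and Slc1a3, a glutamate transporter of all astrocytes, at 445 against at most 316. Atoh1, the transcription factor of granule cell precursors, was listed at 0 in CK replicate 3 and stayed under 1 FPKM in every library.

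**Figure D2:**
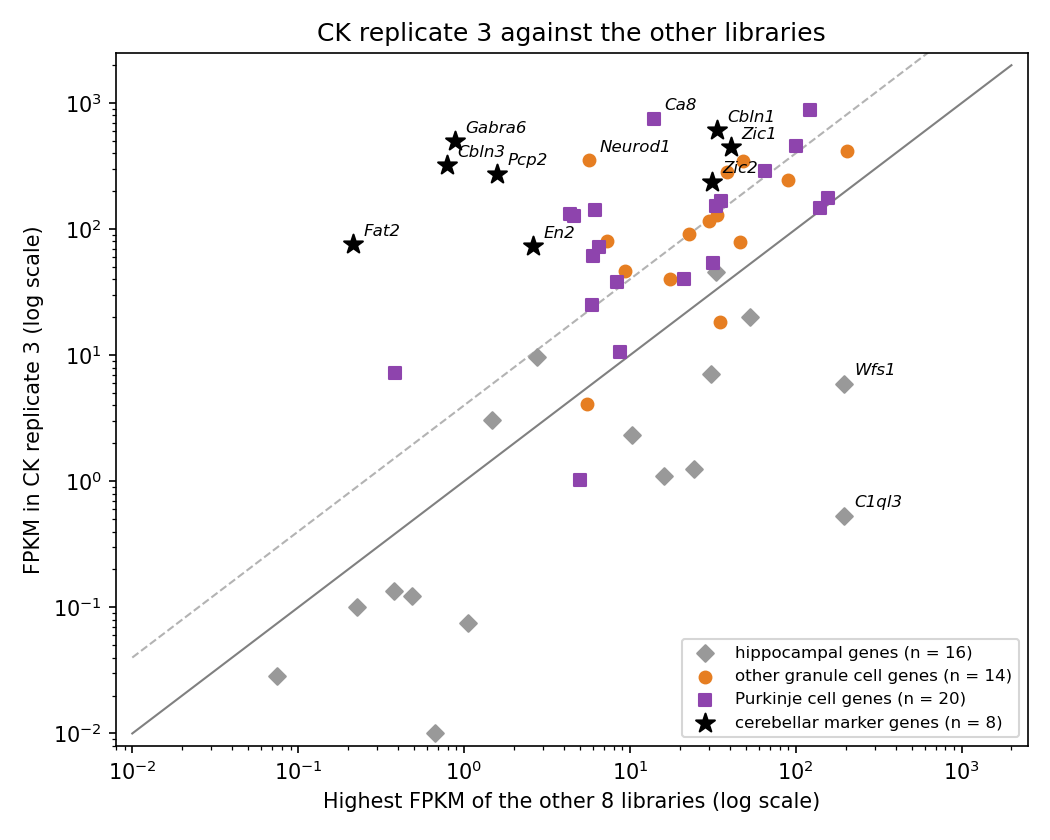
FPKM in CK replicate 3 against the highest FPKM among the other 8 libraries, both on log axes, with 1 point per gene for the 8 marker genes, 14 other granule cell genes, 20 Purkinje cell genes and 16 hippocampal genes, a solid line of equal level and a dashed line at a 4-fold excess of CK replicate 3. All 8 marker genes lie above the dashed line, with 6 of the granule cell genes and 14 of the Purkinje cell genes, and Fibcd1, listed at 0 in CK replicate 3, is drawn at the lower edge.

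The 15 other genes with the largest ratios in the same order, picked without regard to any list, began with Crtam at 34.1 FPKM against at most 0.116. Neurod1, Ca8, Slc1a6 and Atp2a3 were the 4 of the 15 that stood on the cerebellar lists. Hes3, a transcriptional repressor, was at 89.6 against at most 1.82 FPKM, and Cnpy1, known in zebrafish as a partner of FGF signalling at the midbrain-hindbrain boundary, at 100.1 against at most 3.47. The gene AABR07010944.1 was at 15.3 FPKM and listed at 0 in the other 8 libraries. For the remaining genes, Impg1, Zfp385c, AABR07025051.3, Arhgef33, Tff3, Il16 and AABR07043892.1, CK replicate 3 ran from 18.0 to 147 FPKM.

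Some relatives of the marker genes were low where the marker genes were high. Cbln2, the cerebellin of forebrain neurons, was at 0.175 FPKM in CK replicate 3 and between 11.2 and 46.8 in the other libraries, so that its lowest other value was 64.0-fold above CK replicate 3. Cbln4 was at 0.0404 FPKM against 1.15 to 18.3, a 28.4-fold distance. Cbln1 and Cbln3 were thus highest, and Cbln2 and Cbln4 lowest, in the same library.

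Gabra5, the alpha subunit enriched in hippocampal pyramidal cells, showed the converse of Gabra6. It was at 0.491 FPKM in CK replicate 3 and between 13.1 and 39.6 in the other 8 libraries, a 26.7-fold distance. Gabra2, Gabra3 and Gabra4 were at 6.34, 4.85 and 4.87 FPKM in CK replicate 3, above 1 VD library and below the rest in each case. Gabrb2 and Gabrd, receptor subunits that cerebellar granule cells also use, were highest in CK replicate 3, at 74.1 and 245 FPKM. Only 1.85% of the genes kept lay at least 4-fold below their lowest other value in CK replicate 3, and Cbln2, Cbln4 and Gabra5 were among them.

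**Figure D3:**
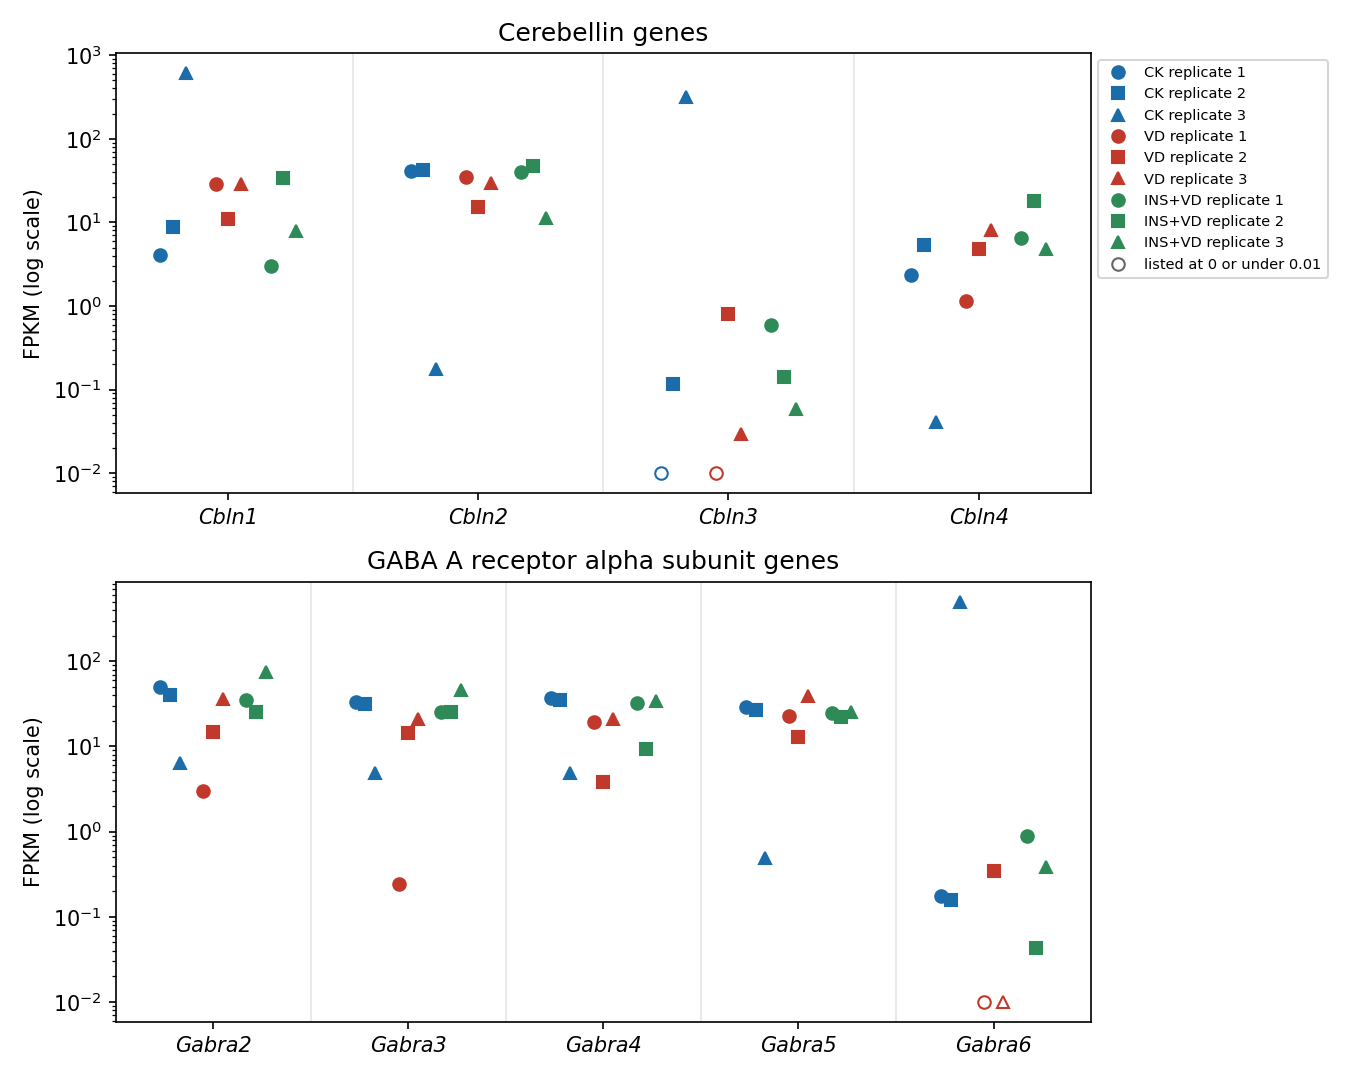
FPKM of the cerebellin genes and of GABA A receptor alpha subunit genes in each library, on a log axis, with a colour per group and a symbol per replicate (CK replicate 3 is the blue triangle). In CK replicate 3 Cbln1, Cbln3 and Gabra6 are at their highest and Cbln2, Cbln4 and Gabra5 at their lowest.

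The labelled tissue was checked with 16 genes of hippocampal neurons. Their FPKM summed to 312, 297 and 97.3 in the CK libraries, 216, 54.8 and 146 in the VD libraries, and 192, 115 and 447 in the INS + VD libraries. C1ql3, a synaptic protein of dentate granule and pyramidal cells, was at 167, 111 and 0.534 FPKM in the CK libraries, 52.3, 11.7 and 19.3 in the VD libraries, and 63.6, 15.2 and 196 in the INS + VD libraries. CK replicate 3 was thus lowest for C1ql3 but not for the list, since VD replicate 2 summed lower. Wfs1, a gene of CA1 pyramidal cells, was at 5.96 FPKM in CK replicate 3, near VD replicate 2 (4.59) and INS + VD replicate 2 (6.09) and below the 44.2 to 197 of the other 6 libraries. Neurod6, a transcription factor of cortical and hippocampal pyramidal neurons, was at 20.2 FPKM in CK replicate 3, above 4 of the other libraries. Dsp, Fibcd1, Spink8, Lct and Tdo2, further markers of dentate gyrus or CA1, stayed under 1 FPKM in all 9 libraries.

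Marker genes of other brain regions were also unevenly spread, and for the marker genes other than Pcp2 a list of another region or tissue was highest in the same library as the next highest level. For Pcp2 that library was VD replicate 1, in which no such list was highest. Several libraries led a list, so such matches are common and name no source. The next highest levels of Fat2, Cbln3 and Gabra6 were also low, at 0.215, 0.791 and 0.884 FPKM. VD replicate 3, the next highest library for Zic1, Zic2 and Fat2, had the highest summed FPKM of 10 olfactory bulb genes, 735, led by Cdhr1 (230) and Doc2g (128). That list summed to between 18.9 and 735 in VD, 6.85 and 21.7 in CK, and 10.9 and 133 in INS + VD. Tbx21, its marker of mitral and tufted cells, was at 22.2 FPKM in VD replicate 3, 8.87 in VD replicate 1 and 0 in VD replicate 2. The 133 belongs to INS + VD replicate 2, where Th alone made up 122 and Tbx21 was at 0.045 FPKM. Meningeal genes, 11 in all, summed to 69.0 to 191 in VD, with the highest value again in VD replicate 3, 37.3 to 71.7 in CK and 55.4 to 84.9 in INS + VD. Their part in the Zic1 and Zic2 levels was not tested.

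INS + VD replicate 2, the next highest library for En2 and Cbln1, held 14.8 FPKM of En1, the other engrailed gene, compared with 3.82 in CK replicate 3 and at most 1.06 in the other libraries. Th, the rate-limiting enzyme of dopamine synthesis, was at 122 FPKM and Slc17a6, the vesicular glutamate transporter of thalamus and midbrain, at 95.5 there. The 9 thalamic genes summed to 182 FPKM in that library, to 36.7 at the lowest in INS + VD, to 30.9 to 68.8 in CK and to 35.2 to 72.4 in VD. INS + VD replicate 1, the next highest library for Gabra6, had a sum of 1746 FPKM over 10 choroid plexus genes, of which Ttr made up 1635, against 3.92 at the lowest in INS + VD, 3.18 to 10.002 in CK and 7.80 to 22.5 in VD. VD replicate 2, the next highest for Cbln3, had 164 FPKM over 19 genes of hindbrain and spinal cord, against 0.569 at the lowest in VD, 0.985 to 7.78 in CK and 1.42 to 2.56 in INS + VD, and Hoxb2 and Hoxb5 were at 25.2 and 24.0 FPKM there and at 0 in the other 8 libraries. The part of these tissues in the marker gene levels was not tested.

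For each marker gene the 3 genes most like it over the 8 libraries without CK replicate 3 were taken from 13591 genes with a mean of at least 1 FPKM. En2 was most like Hdc (r = 0.99), Chrna6 (0.98) and En1 (0.98), all highest in INS + VD replicate 2, and of these Hdc and Chrna6 were at 0.0248 and 0 FPKM in CK replicate 3. Gabra6 was most like Slc35a2, Kcne2 and Mamstr (0.90 each), and Kcne2 is a choroid plexus gene that was highest in INS + VD replicate 1. Pcp2 was most like Dbp (0.99), a transcription factor of the circadian clock that was highest in VD replicate 1 at 183 FPKM, then Pkdcc and Spef1 (0.93 each). Zic2 was most like Sp4, AC097784.1 and AC131360.1 (0.99 each), which were lowest in VD replicate 1 as Zic2 was. Zic1 was most like Lhfpl2, St6galnac4 and Gnai3 (0.98 each), Cbln1 like LOC688815 (0.99), Bbs4 (0.96) and Fchsd1 (0.95), Cbln3 like Gtse1 (0.94), Hspa12b (0.93) and Nos3 (0.92), and Fat2 like Notch2 and Lox (0.97 each) and Carnmt1 (0.96). With 8 points that share library and depth and 13591 genes to choose from, high values describe which library leads and nothing further.

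Group means carried the single high library. Gabra6 averaged 167 ± 289 FPKM (SD, n = 3) in CK, 0.116 ± 0.201 in VD and 0.435 ± 0.423 in INS + VD. Cbln1 averaged 208 ± 350.0 in CK, 22.8 ± 10.2 in VD and 14.9 ± 16.5 in INS + VD, and Pcp2 92.2 ± 159.5 in CK, 0.605 ± 0.848 in VD and 0.495 ± 0.438 in INS + VD. Over CK replicates 1 and 2 the means were 0.166 for Gabra6, 6.39 for Cbln1 and 0.0620 for Pcp2. The SD of CK exceeded its mean for each of these genes, and the groups overlapped for all 8 genes in every comparison. Groups did not overlap for 18% of the 15099 genes kept in VD vs. CK, 15.2% in INS + VD vs. VD and 11.1% in INS + VD vs. CK. Of the 8 genes 5 passed the filter on low values, Cbln1, Cbln3, Pcp2, Zic1 and Zic2, and Cbln3 and Pcp2 did so with CK replicate 3 as 1 of only 3 libraries at 0.5 FPKM or above.

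In VD vs. CK the difference of mean log2(FPKM + 1) was −3.0 for Gabra6, −2.54 for Cbln3, −2.0 for Fat2, −2.20 for Pcp2 and −1.96 for En2. Without CK replicate 3 it was −0.08, 0.21, 0.07, 0.47 and 0.10. For these 5 genes the large negative differences were thus not present without CK replicate 3. For the broad genes the difference went from −0.50 to 1.65 for Cbln1, from −0.82 to 1.13 for Zic1 and from −2.06 to −0.52 for Zic2, and the Zic2 value still held the 0 of VD replicate 1. On this scale, differences of genes near or below 1 FPKM are understated.

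INS + VD vs. CK shared the CK libraries and showed the same dependence. The difference went from −2.66 to 0.26 for Gabra6, from −2.52 to 0.23 for Cbln3, from −2.22 to 0.46 for Pcp2, from −2.04 to 0.03 for Fat2 and from −1.32 to 0.74 for En2 once CK replicate 3 was left out. It went from −1.53 to 0.62 for Cbln1, from −1.63 to 0.32 for Zic1 and from −1.22 to 0.33 for Zic2. In all, 14 of the 16 differences from CK changed sign, all but Gabra6 and Zic2 in VD vs. CK.

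**Figure D4:**
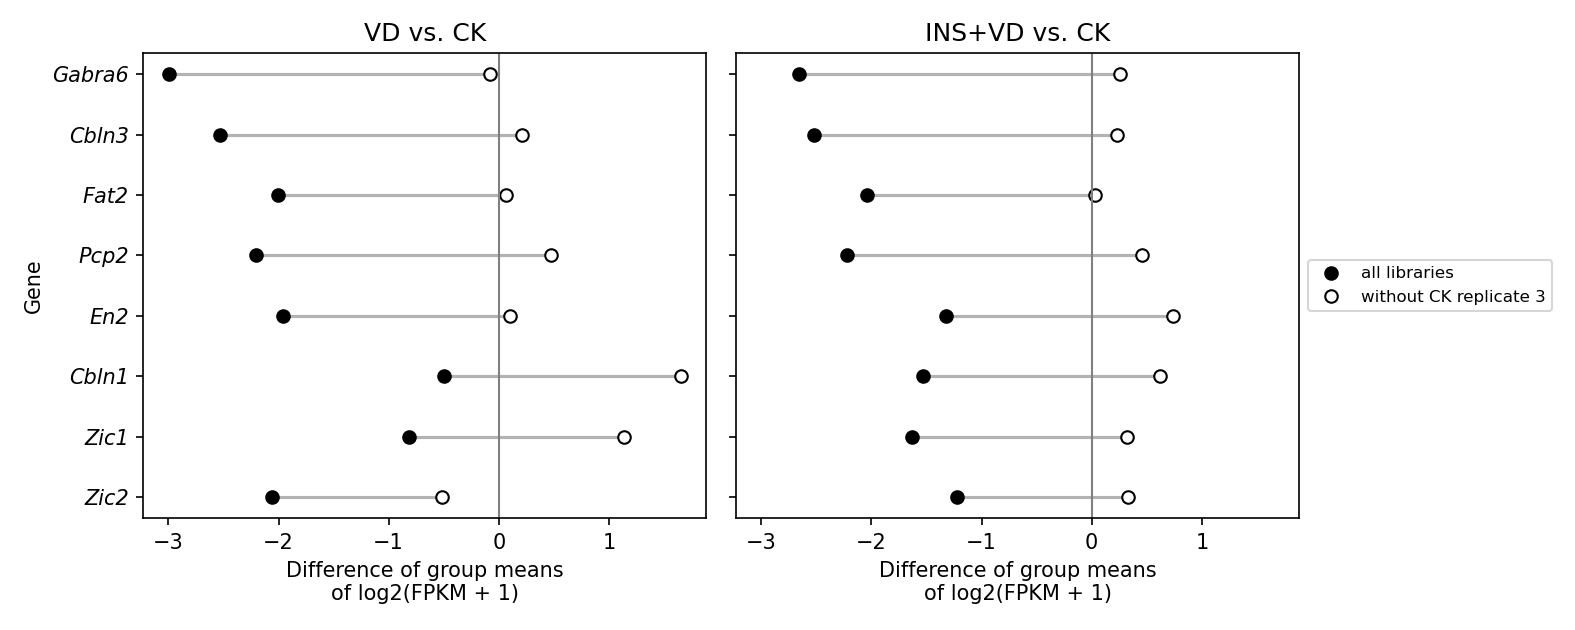
Difference of group means of log2(FPKM + 1) for the 8 marker genes in VD vs. CK and in INS + VD vs. CK, with all libraries (filled points) and without CK replicate 3 (open points). All 16 filled points lie below 0, and 14 of the 16 open points lie above 0.

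INS + VD vs. VD does not involve CK. Here the differences were 0.34 for Gabra6, 0.02 for Cbln3, −0.04 for Fat2, −0.02 for Pcp2 and 0.64 for En2, and −1.03 for Cbln1, −0.82 for Zic1 and 0.84 for Zic2. Single libraries moved these values. En2 was at 0.09 without INS + VD replicate 2, Gabra6 at 0.12 without INS + VD replicate 1, and Zic2 at −0.53 without VD replicate 1 and 1.98 without VD replicate 3. Cbln1 was at −0.32 or −1.88 when INS + VD replicate 1 or 2, respectively, was left out, and Zic1 at −0.17 without VD replicate 3 and −1.37 without VD replicate 1. At levels of at most 1.57 FPKM the size for Gabra6, Cbln3 and Pcp2 also depended on the pseudocount, and with 0.1 in place of 1 it was 1.30, 0.39 and 0.39. With the same change En2 was at 1.60, and Zic2, which holds the 0 of VD replicate 1, at 1.90. Cbln1, Zic1 and Fat2 were then at −1.15, −0.86 and −0.16.

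For the other cerebellar genes, 50 of 57 passed the filter and were fitted with all genes in limma. Their median log2 fold change in VD vs. CK was −0.76, beside −0.02 for all genes, and 0.28 without CK replicate 3, beside 0.02 for all genes. It was −1.33 without CK replicate 1 and −1.28 without CK replicate 2. In INS + VD vs. CK it was −0.65, and 0.23, −1.11 and −1.23 without CK replicates 3, 1 and 2, and in INS + VD vs. VD it was 0.13, or −0.03 when VD replicate 1 and −0.21 when INS + VD replicate 2 was left out. Scaling libraries to an equal sum shifted the median of all genes in VD vs. CK to −0.19 and centring on library medians to 0.16, and the cerebellar median was then −0.96 and −0.58.

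In limma 0 genes, or 0% of the 15099, passed an adjusted p of 0.05 together with a log2 fold change of 1 or more in size in any comparison, while an unadjusted p of at most 0.05 was reached by 1925 genes in VD vs. CK (12.7%), 1417 in INS + VD vs. VD (9.38%) and 275 in INS + VD vs. CK (1.82%). Without VD replicate 2 the adjusted p and fold called 28 genes in VD vs. CK and 20 in INS + VD vs. VD. By the unadjusted p with the fold minimum there were 1326 genes (8.78%), 932 (6.17%) and 142 (0.94%). By this last rule, 5 of the 50 other cerebellar genes were lower in VD vs. CK, beside 4.89% of all genes, and 1 was higher, beside 3.89%. The lower genes were Neurod1 (log2 fold change −3.51, and −1.33 without CK replicate 3), Itpr1 (−3.41 and −2.68), Cadps2 (−2.48 and −1.82), Calb1 (−2.12 and −1.04) and Rgs8 (−1.94 and −0.77), and the higher gene was Fabp7 (2.53 and 2.63). With that library left out the counts were 3 lower (5.04% of all genes) and 4 higher (3.74%). Without CK replicate 1 there were 8 lower, beside 497 of the 15099 genes. Without CK replicate 2 there were also 8, beside 528 of the 15099. In INS + VD vs. VD 3 were higher (Kcnk9 2.21, Itpr1 1.81 and Cadps2 1.55), beside 3.64% of all genes, and 2 lower, Fabp7 (−2.39) among them, beside 2.54%. The folds of this comparison stay as they are without CK replicate 3, but with the spread estimated without it 5 were higher (3.85% of all genes) and 4 lower (2.48%). In INS + VD vs. CK 1 gene, Etv1 (−1.51, and −0.75 without CK replicate 3), was lower, beside 0.305%, and 0 were higher, beside 0.636%. This turned to 0 lower (0.258% of all genes) and 1 higher (0.47%) when CK replicate 3 was left out.

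CK replicate 3 also entered the calls over the whole table. In VD vs. CK 738 genes were lower by the unadjusted p and fold, and 324 of them (43.9%) had their highest level in CK replicate 3, as the 8 marker genes had. The share was 20.2% over all genes kept, but a call of lower in VD itself favours genes that are highest in a CK library. Over the same genes VD replicate 1 was highest for a larger share, 25.9%. It was at least 4-fold above the other libraries for 153 genes, against 126 for CK replicate 3. Of the 738 genes 438 (59.3%) were among the 761 called without CK replicate 3 (57.6% of these). Of the 588 higher genes 402 (68.4%) were among the 564 called without it (71.3% of these). Calls also changed when another CK library was left out, with 464 higher and 497 lower without CK replicate 1 and 484 and 528 without CK replicate 2. Their overlap with the calls from all libraries was not computed. The split depended on scaling as well, with 377 higher and 1039 lower at an equal sum per library and 864 higher and 595 lower after centring. In INS + VD vs. VD, where CK replicate 3 bears only on the shared spread, 549 genes were higher and 383 lower (581 and 375 without it), against 847 and 195 at an equal sum and 425 and 534 after centring.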

How the data were processed

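The deposited table gives FPKM that the authors calculated per gene and library after aligning clean reads with HISAT2; the counting program is not given in the sources used here. The labels name the mouse build GRCm38 (mm10) although the identifiers are rat Ensembl genes, so gene positions are printed as the table gives them, and promoter coordinates are those of RefSeq GRCr8. Read counts are not used here and FPKM does not give the mapped depth of a library, which is unknown here, so intervals for counting error are left out. The log2(FPKM + 1) values of the 15099 of 21138 genes that reached 0.5 FPKM in 3 or more of the 9 libraries were fitted in limma 3.58.1 (R 4.3.3) with 3 groups, a trended prior and no replicate block, with Benjamini-Hochberg adjustment. The fit was tested on simulated data. Plots used matplotlib 3.10.9 in Python 3.11.15. The marker genes and the 14 gene lists (151 of 155 names matched) were chosen with earlier results of these data known. Named genes are the 8 members, the listed genes of highest mean or called by the unadjusted p, the 15 largest ratios in CK replicate 3, the 3 most alike per marker gene and the leading genes of other tissue lists; other genes were chosen after their values were seen, and some listed genes are not reported here. Alternatives changed the pseudocount, filter, scaling, prior, libraries in the fit and replicate block, and left out each library in turn.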

Additional observations from a re-analysis of the deposited data

How the results depend on the processing

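The ratio of CK replicate 3 to the highest other library stayed within 1.5-fold of its value for 8 of 8 marker genes under both scalings tried. The 24 group differences of the marker genes were recomputed under the alternatives, and 26 of 327 values had another sign, 14 of them without CK replicate 3 and 3 without VD replicate 1. Leaving out libraries 1 at a time moved the count of genes called by the unadjusted p from 1326 to between 918 and 2557 (without VD replicate 3) in VD vs. CK, from 932 to between 391 (without INS + VD replicate 3) and 2233 (without VD replicate 3) in INS + VD vs. VD, and from 142 to between 90 and 246 (INS + VD replicates 2 and 1 left out, respectively) in INS + VD vs. CK. By the adjusted p the counts ran from 0 to 28 in VD vs. CK and from 0 to 20 in INS + VD vs. VD, with calls only without VD replicate 2. The median of the other cerebellar genes ran from −1.33 to 0.28 in VD vs. CK, from −1.23 to 0.23 in INS + VD vs. CK and from −0.21 to 0.36 in INS + VD vs. VD. A pseudocount of 0.1 gave 234 calls in INS + VD vs. CK. Correlations after removal of group means ran from −0.317 to 0.383 for libraries of the same replicate number and from −0.362 to 0.385 for different numbers. They thus showed no pairing by number, but deviations from means of 3 libraries cannot exclude it. With the replicate block the unadjusted counts were 1384, 927 and 187, the adjusted counts 0, and the cerebellar medians unchanged. FPKM without counts limits what can be said of values near 0.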
